A study of Homo sapiens with 6 samples.

Results

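The 40 genes described here encode the machinery that carries proteins into mitochondria and the proteases and scaffolds that process and clear them there. They were chosen by name: rows of the deposited count table whose symbol is TOMM or TIMM followed by a number, pseudogenes left out, together with TIMMDC1, PMPCA, PMPCB, GRPEL1, PAM16, DNAJC19, LONP1, CLPP, CLPX, AFG3L2, SPG7, YME1L1, HTRA2, OMA1, PHB and PHB2. They are 40 of 31966 genes in the table, and the rule used no measured value. A further 10 pseudogene rows fitted the name pattern and were left out. The samples were Kasumi-1 cells, an established acute myeloid leukaemia line, with a doxycycline-inducible hairpin RNA against FBL (FBL knockdown, n = 3) or against luciferase (control, n = 3), and all 6 had received doxycycline at 100 ng/ml for 72 h. FBL encodes fibrillarin, the methyltransferase that box C/D small nucleolar RNAs guide to ribosomal RNA. The labels tell the libraries of a group apart by replicate number only and do not say whether the replicates were separate cultures. The p-values therefore set the difference between the groups only against the variation among these 6 libraries, which may be technical. Direct effects of a hairpin RNA on genes other than its target were not tested apart from those of FBL loss. The study asked what depletion of fibrillarin changes, and the comparison reported here is that of FBL knockdown with control at the level of messenger RNA.

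Nearly all mitochondrial proteins are made in the cytosol. The TOM complex of the outer membrane takes them in, the small TIM chaperones escort membrane proteins across the intermembrane space, the TIM22 translocase inserts carriers, and the TIM23 channel with its ATP-driven motor pulls proteins with a presequence into the matrix, where the processing peptidase removes that presequence. Proteases of the matrix (LONP1, CLPXP), of the inner membrane (m-AAA, i-AAA, OMA1) and of the intermembrane space (HTRA2) degrade damaged or unassembled proteins, and the prohibitins form a ring-shaped scaffold beside the inner-membrane proteases.

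Levels are given as RPKM, read counts divided by gene length and by a library total scaled with edgeR's TMM factor, a scaling read from the deposited values themselves. RPKM and ratios of RPKM were not corrected for GC content, the share of G and C in a transcript. Its part in differences of level between genes was not tested. Changes are log2 fold changes of FBL knockdown over control ± standard error (SE) from edgeR's quasi-likelihood test across all tested genes. A gene was called lower or higher where its p, adjusted over all tested genes by the Benjamini-Hochberg method, was under 0.05. Total counts ran between 85556322 and 95023102 in the FBL knockdown libraries and between 88541034 and 103148412 in the control libraries. FBL itself had a log2 fold change of -3.67 ± 0.17 (adjusted p = 3.93e-06, edgeR) and matched every label. Markers of the line were read in all libraries, with MPO highest at 1704, 1372 and 1523 RPKM in FBL knockdown libraries, against 1874, 2315 and 1997 RPKM in control libraries, whereas PTPRC was scarce, at 0.102 to 0.132 RPKM in FBL knockdown and 0.0775 to 0.105 RPKM in control libraries. RUNX1T1, a partner in the fusion gene that defines the line, was at 0.866 to 0.970 RPKM in FBL knockdown and 0.752 to 0.946 RPKM in control libraries. MPO was called lower (-0.42 ± 0.11, adjusted p = 0.0134, edgeR) and CD34 higher (0.67 ± 0.13, adjusted p = 0.0024, edgeR), and their part in the results below was not tested. The 7 markers of other cell types found in the table (T cell, epithelial, fibroblast, hepatocyte, erythroid) together summed to 0.102 to 0.151 RPKM in FBL knockdown and 0.087 to 0.161 RPKM in control libraries. Transcripts of the mitochondrial genome took 16.8% ± 2.0 of counts in FBL knockdown and 13.8% ± 1.4 in control libraries (SD, n = 3 each), and the groups overlapped. In these bulk samples fewer cells of a kind and less RNA per cell cannot be told apart, which holds for every level below.

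All 40 members passed the filter on low counts. Of these, 19 were called lower, 1 was called higher (TOMM7) and 20 did not pass. Over all 18486 tested genes the same test called 17.0% lower and 15.8% higher. The members were mostly abundant, and 33 of them lay at a CPM (count scaled to the library total) of 10 or more, where 27.7% of all genes were called lower and 16.2% higher, against 18 and 1 of the 33 members. The median log2 fold change of the members was -0.21, beside -0.01 over all tested genes, and -0.27 for members at 10 CPM or more, beside -0.06 for all genes at that level. The FBL knockdown libraries all lay below the control libraries for 21 members and all above them for 3, while over all tested genes the knockdown lay below for 23.3% and above for 21.9%. The median member stood at -0.22, -0.24 and -0.23 on the log2 scale in FBL knockdown replicates 1, 2 and 3, each measured from the control mean. The count of lower members was 12 without FBL knockdown replicate 2 and 11 without FBL knockdown replicate 3, and the higher call of TOMM7 was lost without any 1 of FBL knockdown replicates 1, 2 and 3 or control replicate 3.

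**Figure D1:**
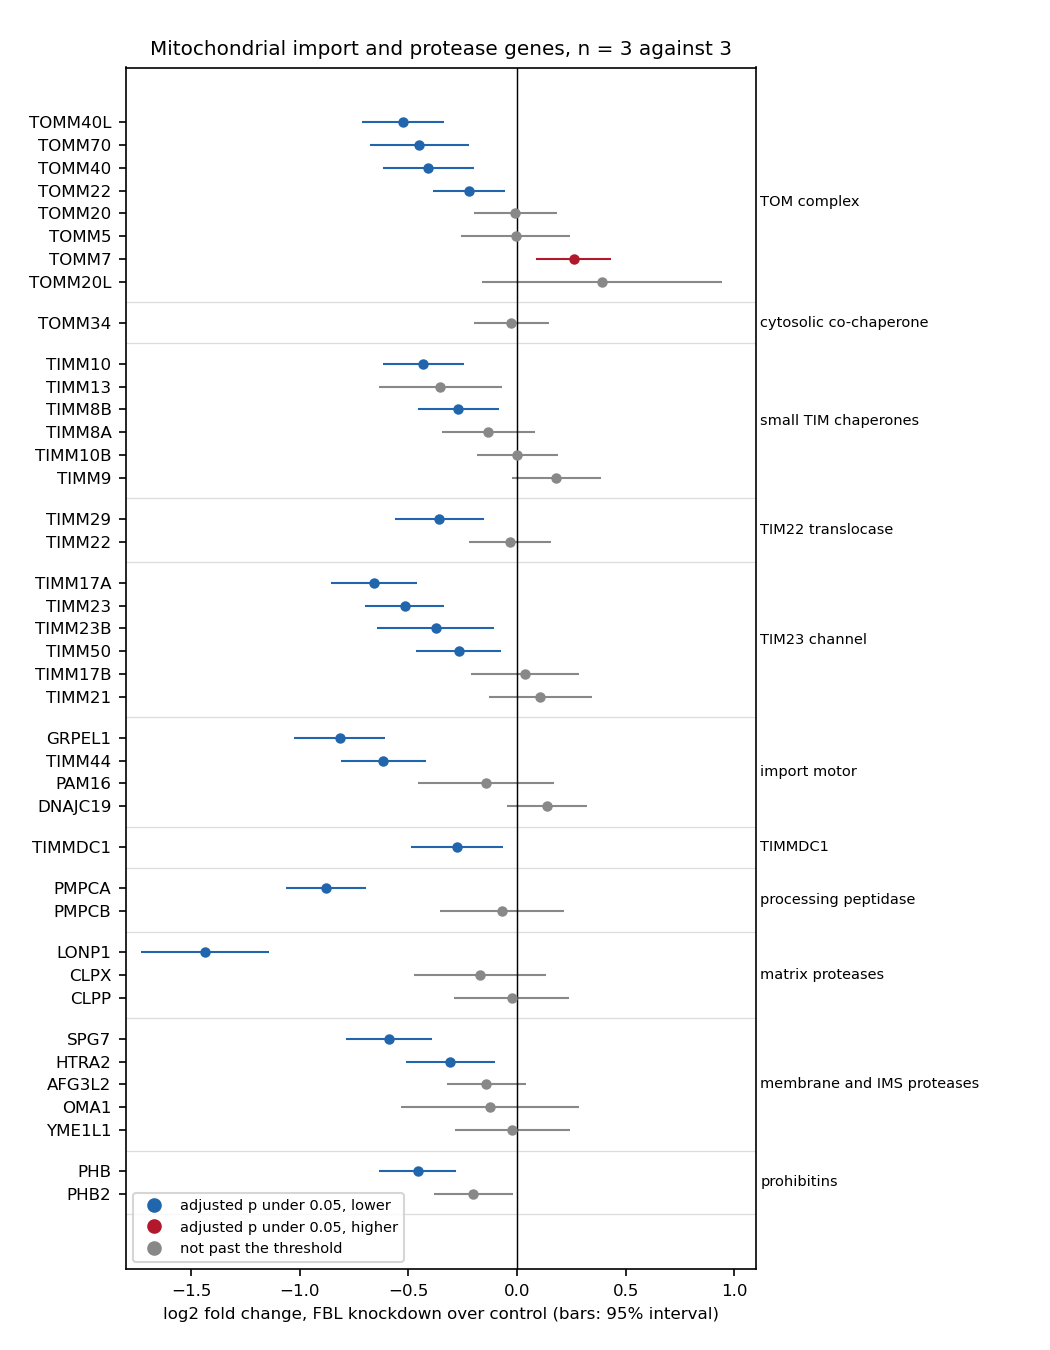
Log2 fold change of FBL knockdown over control for each of the 40 members, grouped by role, with bars for the 95% interval (n = 3 against 3). Blue and red points had an adjusted p under 0.05, LONP1 lies farthest left at -1.44, and TOMM7 is the single red point at 0.26.

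The largest change was in the matrix protease LONP1 (ENSG00000196365, GRCh38 chromosome 19, 5691834 to 5720572, minus strand). LONP1 is an ATP-dependent protease that degrades oxidised and misfolded matrix proteins. Its level was 20.8, 13.6 and 16.2 RPKM in FBL knockdown libraries, against 43.1, 49.8 and 44.5 RPKM in control libraries. All 3 knockdown values lay far below the lowest control value, and FBL knockdown replicate 1 was the highest of the knockdown group. The mean was 16.9 ± 3.66 RPKM in FBL knockdown and 45.8 ± 3.56 RPKM in control libraries (SD, n = 3 each), a ratio of 0.369, and the log2 fold change was -1.44 ± 0.13 (adjusted p = 4.81e-05, edgeR). The other matrix protease is built from the peptidase CLPP and its unfoldase CLPX, and neither passed. CLPP stood at 91.3, 78.2 and 82.1 RPKM in FBL knockdown and 70.8, 101 and 84.9 RPKM in control libraries, a log2 fold change of -0.03 ± 0.12 with a 95% interval of -0.29 to 0.24 (adjusted p = 0.892, edgeR). CLPX was far scarcer per length, with 0.763, 0.863 and 0.878 RPKM in FBL knockdown and 1.103, 0.801 and 0.929 RPKM in control libraries (-0.17 ± 0.14, interval -0.47 to 0.13, adjusted p = 0.371, edgeR). Both CLPP and CLPX had overlapping groups. Within a library, LONP1 stood at 0.228, 0.174 and 0.197 times the level of CLPP in FBL knockdown, against 0.608, 0.491 and 0.524 times in control libraries, so the ratio was lower in every knockdown library.

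The processing peptidase cuts off the presequence once a protein reaches the matrix. PMPCA (chromosome 9, 136410570 to 136423761, plus strand) is the subunit that binds the precursor, and PMPCB is the catalytic subunit. PMPCA was at 11.9, 10.03 and 11.3 RPKM in FBL knockdown libraries, against 19.9, 20.5 and 21.0 RPKM in control libraries. The groups lay apart, with a gap wider than the range within either group. Its log2 fold change was -0.88 ± 0.08 (adjusted p = 5.72e-05, edgeR), after LONP1 the largest of the members. PMPCB was at 1.84, 2.19 and 2.40 RPKM in FBL knockdown and 2.55, 2.02 and 2.21 RPKM in control libraries, overlapping groups, with -0.07 ± 0.13 (interval -0.36 to 0.21, adjusted p = 0.713, edgeR). The ratio of PMPCA to PMPCB was 6.47, 4.59 and 4.71 in FBL knockdown, against 7.79, 10.1 and 9.52 in control libraries. PMPCA thus had the higher RPKM of the pair in each library, and by a smaller margin in every knockdown library. Its transcript is 52.3% G and C and that of PMPCB 39.6%, and the part of this in the ratio was not tested.

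In the import motor 2 of 4 members were lower. GRPEL1, the nucleotide exchange factor of the motor's chaperone HSPA9, had 4.81, 4.34 and 4.67 RPKM in FBL knockdown libraries, against 9.03, 7.80 and 7.63 RPKM in control libraries. TIMM44, which tethers that chaperone to the channel, had 7.41, 6.39 and 6.22 RPKM in FBL knockdown libraries, against 10.6, 10.4 and 9.77 RPKM in control libraries. Neither gene had overlapping groups, and the log2 fold changes were -0.82 ± 0.10 for GRPEL1 (adjusted p = 0.000152, edgeR) and -0.61 ± 0.09 for TIMM44 (adjusted p = 0.000516, edgeR). DNAJC19 and PAM16, the J-domain and J-like proteins of the motor, did not pass. DNAJC19 was at 8.25, 9.14 and 8.63 RPKM in FBL knockdown and 7.82, 8.01 and 7.90 RPKM in control libraries, with all knockdown values above the controls (0.14 ± 0.08, adjusted p = 0.228, edgeR). PAM16 was scarce, between 0.676 and 0.863 RPKM in FBL knockdown and between 0.765 and 0.903 RPKM in control libraries (-0.14 ± 0.14, adjusted p = 0.479, edgeR). The gene CORO7-PAM16 overlaps 21.9% of its exon bases on the same strand and has no row in the count table, so the level of PAM16 is uncertain. DNAJC19 is uncertain, since its pseudogenes held reads equal to 35.8% of its own. With those reads added to DNAJC19 the log2 fold change was 0.15 (adjusted p = 0.212, edgeR).

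**Figure D2:**
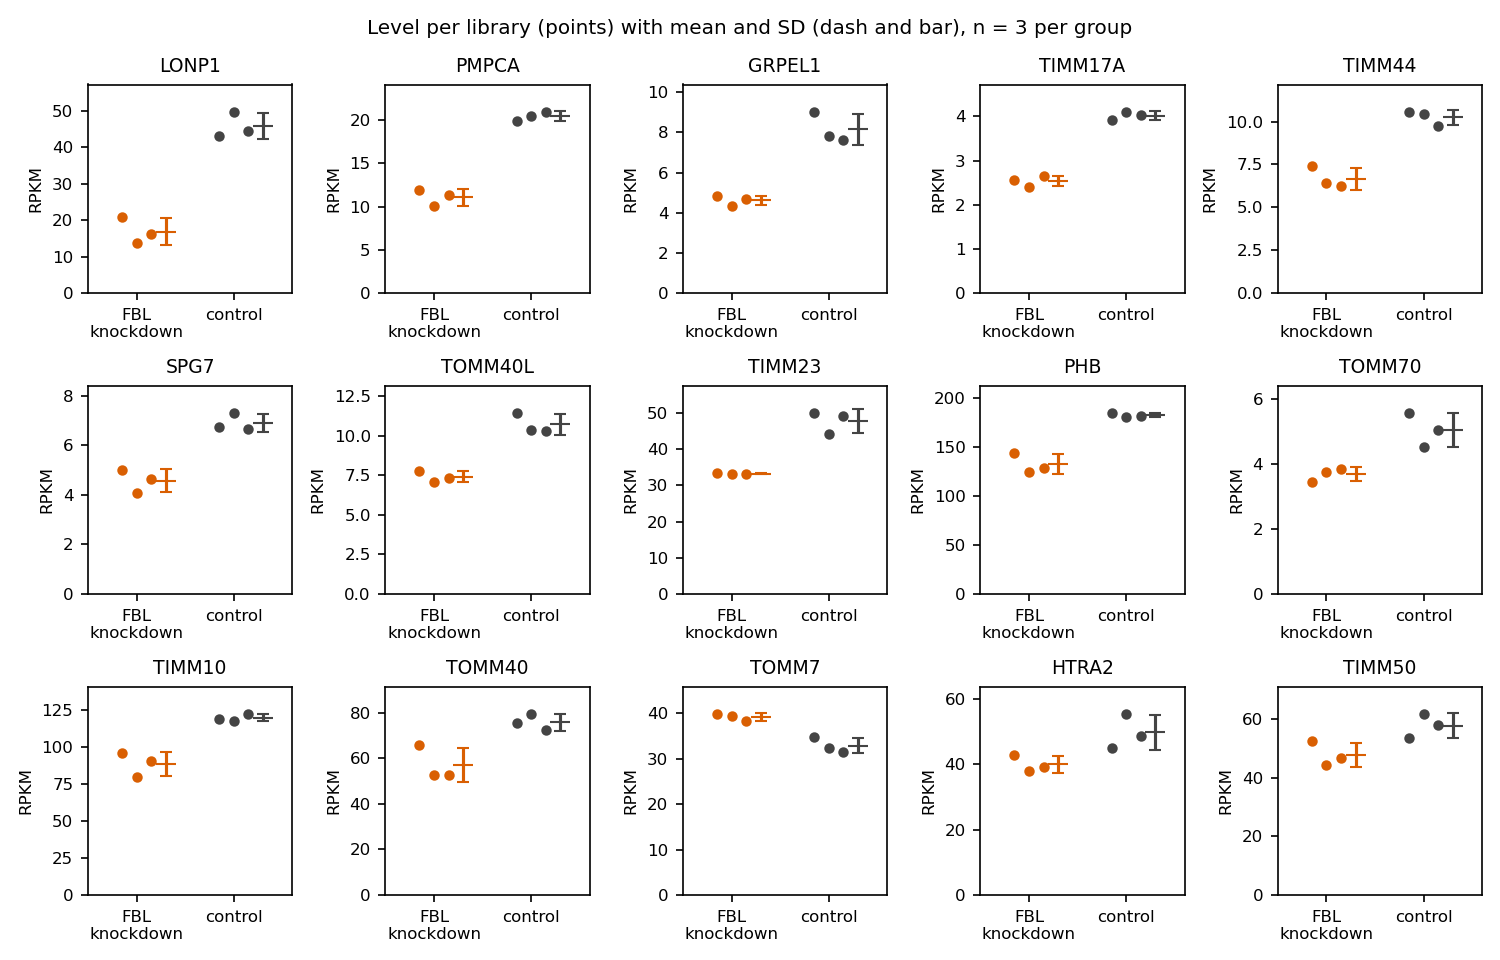
RPKM of 15 members in each library (points), with the group mean and SD beside them, FBL knockdown left of control and each vertical axis starting at 0. In every panel but that of TOMM7 all knockdown points lie below all control points, and TOMM7 shows the opposite order.

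The TIM23 channel had 4 of its 6 members lower. TIMM23 forms the channel together with TIMM17A or TIMM17B, TIMM50 is the receptor that hands presequences to it, and TIMM21 links it to the TOM complex. TIMM23 was at 33.3, 33.2 and 33.1 RPKM in FBL knockdown libraries, against 50.04, 44.1 and 49.1 RPKM in control libraries, so the knockdown values were nearly equal and below every control (-0.52 ± 0.08, adjusted p = 0.000976, edgeR). TIMM17A, the form whose protein the protease YME1L1 degrades under stress, was at 2.56, 2.40 and 2.64 RPKM in FBL knockdown libraries, against 3.91, 4.11 and 4.04 RPKM in control libraries (-0.66 ± 0.09, adjusted p = 0.00037, edgeR). Its groups lay apart. TIMM17B, by far the more abundant form per length, had 78.7, 60.0 and 64.4 RPKM in FBL knockdown and 58.3, 73.2 and 67.0 RPKM in control libraries and did not pass (0.04 ± 0.11, interval -0.21 to 0.28, adjusted p = 0.829, edgeR). TIMM17A therefore stood at 0.0326, 0.0401 and 0.0410 of the TIMM17B level in FBL knockdown, against 0.0670, 0.0561 and 0.0603 in control libraries. TIMM50 had 52.5, 44.5 and 46.7 RPKM in FBL knockdown libraries, against 53.5, 61.9 and 58.0 RPKM in control libraries, groups that lay close but apart (-0.27 ± 0.09, adjusted p = 0.0393, edgeR). Its call was lost in 11 of 21 alternative settings, with all libraries kept under RLE and upper-quartile scaling, no filter, DESeq2 and both log2 RPKM tests among others, and without any 1 of FBL knockdown replicates 2 and 3 and control replicates 2 and 3 (-0.27 to -0.22, adjusted p = 0.0795 to 0.211, edgeR). TIMM21 stayed between 0.841 and 0.895 RPKM in FBL knockdown and between 0.746 and 0.854 RPKM in control libraries (0.11 ± 0.11, adjusted p = 0.475, edgeR).

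TIMM23B is a close copy of TIMM23 on the same chromosome. It was at 1.22, 1.21 and 1.178 RPKM in FBL knockdown libraries, against 1.79, 1.51 and 1.41 RPKM in control libraries (-0.38 ± 0.12, adjusted p = 0.0355, edgeR). The groups did not overlap, but the call was lost in 8 of 20 alternative settings, among them without any 1 of FBL knockdown replicates 1, 2 and 3 and control replicate 1 (-0.39 to -0.27, adjusted p = 0.0723 to 0.13, edgeR). Of the 50-base stretches in TIMM23 transcripts of the GENCODE v29 annotation, 17.0% also occur in TIMM23B transcripts, so reads of this pair may be split and both values are uncertain. For the other 12 pairs compared below that share was 0%.

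Promoters are shown for both paralogous pairs of the channel, since TIMM17A was called lower and TIMM17B was not, while TIMM23 and TIMM23B were both called lower, and for TOMM70, a lower member of the outer membrane described next. The windows run from 250 bases before to 50 bases after the RefSeq start (GRCh38.p14), read 5′ to 3′ on the strand of the gene. Capitals mark CCAAT, the box bound by nuclear factor Y, and CCGGAAG, a core bound by ETS-family factors such as GABPA, each on either strand.
TIMM17A, chr1:201955253-201955552, plus strand: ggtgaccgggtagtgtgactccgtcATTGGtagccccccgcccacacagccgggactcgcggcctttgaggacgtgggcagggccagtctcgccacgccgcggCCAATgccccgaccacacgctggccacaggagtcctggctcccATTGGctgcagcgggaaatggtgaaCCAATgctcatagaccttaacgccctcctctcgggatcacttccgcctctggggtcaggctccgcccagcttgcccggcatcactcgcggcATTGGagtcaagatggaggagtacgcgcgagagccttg
TIMM17B, chrX:48897719-48898018, minus strand: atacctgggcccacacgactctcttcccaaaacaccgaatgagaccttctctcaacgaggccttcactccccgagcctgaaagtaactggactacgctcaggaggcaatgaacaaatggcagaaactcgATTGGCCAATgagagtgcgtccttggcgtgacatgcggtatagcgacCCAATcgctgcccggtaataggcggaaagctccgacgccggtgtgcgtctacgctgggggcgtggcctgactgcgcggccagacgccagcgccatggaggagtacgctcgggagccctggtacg
TIMM23, chr10:45972239-45972538, plus strand: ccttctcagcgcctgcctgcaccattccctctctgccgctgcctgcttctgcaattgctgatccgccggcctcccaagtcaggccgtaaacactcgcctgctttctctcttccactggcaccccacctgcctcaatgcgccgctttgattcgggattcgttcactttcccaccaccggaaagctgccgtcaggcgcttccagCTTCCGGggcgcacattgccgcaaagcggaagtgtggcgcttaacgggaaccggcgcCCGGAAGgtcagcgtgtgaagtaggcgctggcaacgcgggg
TIMM23B, chr10:49941803-49942102, plus strand: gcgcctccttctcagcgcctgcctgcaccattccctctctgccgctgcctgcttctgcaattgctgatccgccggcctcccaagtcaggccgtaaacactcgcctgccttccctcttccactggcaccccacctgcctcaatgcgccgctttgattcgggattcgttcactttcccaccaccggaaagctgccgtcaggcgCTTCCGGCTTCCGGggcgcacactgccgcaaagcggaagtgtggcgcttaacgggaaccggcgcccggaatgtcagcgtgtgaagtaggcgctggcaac
TOMM70, chr3:100401040-100401339, minus strand: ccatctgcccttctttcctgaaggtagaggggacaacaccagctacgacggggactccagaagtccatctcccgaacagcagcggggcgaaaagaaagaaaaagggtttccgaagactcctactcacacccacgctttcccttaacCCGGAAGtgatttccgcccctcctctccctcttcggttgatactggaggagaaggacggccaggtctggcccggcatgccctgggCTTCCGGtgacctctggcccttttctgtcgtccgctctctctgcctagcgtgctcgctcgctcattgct

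TIMM17A carries 5 and TIMM17B 3 CCAAT matches, neither has CCGGAAG, and the windows of this pair are identical in 51.7% of aligned columns. TIMM23 and TIMM23B are identical in 94.4% of columns and hold 2 CCGGAAG matches each, at -48 and 9 bases from the start in TIMM23 and at -49 and -42 in TIMM23B. TOMM70 also has 2, at -104 and -19. RefSeq windows were found for 30 members. The others were CLPP, DNAJC19, GRPEL1, HTRA2, LONP1, PHB2, SPG7, TIMM8B, TOMM5 and YME1L1. CCGGAAG on either strand was present in 12 of the 30 (40.0%), against 16.3% of 15866 promoters of tested genes and 10.3% of all 35116 promoters. It was in 7 of 14 lower members and in 5 of 15 that did not pass. CCAAT was in 11 of 30 members (36.7%), beside 33.9% for tested genes and 34.6% for all promoters. It was in 6 of 14 lower members and in 5 of 15 that did not pass. The core GCATGCGC of NRF1 was in 4 of 30 (13.3%, beside 4.68% and 3.05%), with 0 of 14 lower members and 3 of 15 that did not pass. The E-box CACGTG was in 3 of 30 (10%, beside 9.3% and 7.26%), with 1 of 14 and 2 of 15. The motif TGATGNAA, which ATF4 and CHOP bind together, was in 2 of 30 (6.67%, beside 1.97% and 3.62%), with 0 of 14 and 2 of 15. These splits by call rest on few promoters and were not tested. The 5 motifs were searched on both strands, and a match is a run of letters, not a measured site.

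Of 8 members of the TOM complex, 4 were lower and TOMM7 was higher. TOMM40 is the pore, TOMM22 the receptor that organises the complex, TOMM20 the presequence receptor and TOMM70 the receptor for carriers delivered by cytosolic chaperones. TOMM40 (chromosome 19, 44890569 to 44903689, plus strand) stood at 65.6, 52.6 and 52.5 RPKM in FBL knockdown libraries, against 75.3, 79.5 and 72.4 RPKM in control libraries. Its groups lay apart, with FBL knockdown replicate 1 closest to the controls (-0.41 ± 0.10, adjusted p = 0.00796, edgeR), and the call was lost without FBL knockdown replicate 3 (-0.33, adjusted p = 0.0848, edgeR). Pseudogenes of TOMM40 held reads equal to 8.48% of its own, and with them added its change was -0.40 (adjusted p = 0.00734, edgeR). Its paralogue TOMM40L had 7.80, 7.10 and 7.33 RPKM in FBL knockdown libraries, against 11.4, 10.3 and 10.3 RPKM in control libraries (-0.53 ± 0.09, adjusted p = 0.00102, edgeR). NR1I3, on the opposite strand, overlaps 20.1% of the exon bases of TOMM40L and was lower as well (-0.55 ± 0.10, adjusted p = 0.00196, edgeR), and without strand information reads of the overlap cannot be told apart. TOMM70 had 3.44, 3.77 and 3.86 RPKM in FBL knockdown libraries, against 5.59, 4.54 and 5.07 RPKM in control libraries, with no overlap (-0.45 ± 0.10, adjusted p = 0.00697, edgeR). TOMM22 had 94.4, 94.6 and 92.8 RPKM in FBL knockdown libraries, against 105, 113 and 112 RPKM in control libraries. The knockdown values were close to each other and below every control (-0.22 ± 0.07, adjusted p = 0.0438, edgeR), but the call was lost in 11 of 21 alternative settings, among them without any 1 of FBL knockdown replicates 1, 2 and 3 and control replicates 2 and 3 (-0.23 to -0.19, adjusted p = 0.0859 to 0.21, edgeR).

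TOMM7, a small subunit that also holds the kinase PINK1 at the outer membrane, was at 39.9, 39.5 and 38.2 RPKM in FBL knockdown libraries, against 34.7, 32.4 and 31.5 RPKM in control libraries. All knockdown values exceeded all control values (0.26 ± 0.08, adjusted p = 0.0277, edgeR). Without any 1 of FBL knockdown replicates 1, 2 and 3 and control replicate 3 the value was 0.23 to 0.30 and did not pass (adjusted p = 0.0575 to 0.137, edgeR), and over all alternative settings the call was lost in 7 of 21. The presequence receptor TOMM20 was at 13.4, 15.03 and 13.9 RPKM in FBL knockdown and 14.0, 13.7 and 15.1 RPKM in control libraries, with overlap and an interval of -0.20 to 0.18 for the log2 fold change (adjusted p = 0.949, edgeR), and its pseudogenes held reads equal to 10.4% of its own. TOMM20 stood at 3.89, 3.99 and 3.61 times the level of TOMM70 in FBL knockdown, against 2.51, 3.03 and 2.98 times in control libraries, higher in every knockdown library. The small subunit TOMM5 (-0.01 ± 0.12, interval -0.26 to 0.24) and the scarce paralogue TOMM20L (0.39 ± 0.25, interval -0.16 to 0.94) did not pass. TOMM20L passed without control replicate 1 (0.70, adjusted p = 0.0252, edgeR), at 1.20 to 2.52 RPKM over all libraries, and 27.9% of its exon bases overlap TIMM9 on the opposite strand. TOMM34, a cytosolic partner of heat shock chaperones that is not a subunit of the complex, did not pass (-0.03 ± 0.08, interval -0.20 to 0.15, adjusted p = 0.829, edgeR).

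The small TIM chaperones and the TIM22 translocase serve membrane proteins such as the metabolite carriers. TIMM10, which forms a hexamer with TIMM9, was at 95.9, 79.6 and 90.3 RPKM in FBL knockdown libraries, against 119, 118 and 123 RPKM in control libraries (-0.43 ± 0.09, adjusted p = 0.00319, edgeR). Its partner TIMM9 was at 11.3, 12.0 and 11.3 RPKM in FBL knockdown and 10.7, 9.37 and 10.6 RPKM in control libraries. The knockdown values of TIMM10 all lay below and those of TIMM9 all above the controls, but TIMM9 did not pass (0.18 ± 0.09, adjusted p = 0.163, edgeR). TIMM9 thus stood at 0.118, 0.151 and 0.125 of the TIMM10 level in FBL knockdown, against 0.0899, 0.0796 and 0.0865 in control libraries. TIMM10B, the form held at the TIM22 translocase, was at 9.17, 10.04 and 9.92 RPKM in FBL knockdown and 10.01, 9.71 and 9.50 RPKM in control libraries, with an interval of -0.18 to 0.19 around a log2 fold change of 0.00 (adjusted p = 0.988, edgeR). The gene AC084337.2 overlaps 13.5% of the exon bases of TIMM10B on the same strand and has no row in the count table, so the level of TIMM10B is uncertain. TIMM8B was at 91.2, 87.2 and 91.7 RPKM in FBL knockdown libraries, against 98.1, 115 and 114 RPKM in control libraries, with no overlap (-0.27 ± 0.09, adjusted p = 0.0323, edgeR). Its call was lost in 8 of 21 alternative settings, among them without any 1 of FBL knockdown replicates 1, 2 and 3 and control replicates 2 and 3 (-0.27 to -0.23, adjusted p = 0.0614 to 0.134, edgeR). The pseudogene of TIMM8B held reads equal to 8.91% of its own, and with them added the change was -0.26 (adjusted p = 0.0338, edgeR). NKAPD1 on the opposite strand overlaps 30.1% of the exon bases of TIMM8B and did not pass (0.105 ± 0.121, adjusted p = 0.547, edgeR). The part of such reads in the TIMM8B value was not tested.

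TIMM8A, whose loss causes a deafness and dystonia syndrome, was at 3.49, 2.99 and 3.33 RPKM in FBL knockdown and 3.71, 3.49 and 3.58 RPKM in control libraries. Its groups all but touched, at 3.493 RPKM in FBL knockdown replicate 1 and 3.494 RPKM in control replicate 2. The knockdown values were otherwise the lower ones, and the test did not pass (-0.13 ± 0.10, interval -0.34 to 0.08, adjusted p = 0.325, edgeR). TIMM13, the partner of TIMM8A, was at 64.1, 51.6 and 55.5 RPKM in FBL knockdown and 60.1, 87.9 and 71.5 RPKM in control libraries. These groups overlapped through FBL knockdown replicate 1 and control replicate 1 (-0.35 ± 0.13, adjusted p = 0.0569, edgeR). TIMM13 passed in 4 of 21 alternative settings: with library size only as scaling (-0.35, adjusted p = 0.0294, edgeR), without FBL knockdown replicate 1 (-0.43, adjusted p = 0.0448, edgeR), without control replicate 1 (-0.48, adjusted p = 0.00766, edgeR) and after a correction for GC content per library (-0.38, adjusted p = 0.000109, edgeR), a correction that also raised the calls over all genes to 23.3% lower and 22.6% higher. Its transcript is 63.6% G and C, and GC-rich transcripts were read to different extents in the libraries. Relative to the mean of all libraries, the log2 level moved by 0.12 per 10 points of GC content in FBL knockdown replicate 1, by 0.15 in control replicate 2 and by -0.14 in control replicate 1. With the GC correction the TIMM13 value was -0.38, beside -0.35 without it, and the part of GC content in it was not tested further. LMNB2 on the same strand overlaps 13.0% of the exon bases of TIMM13 and was lower too (-0.73 ± 0.11, adjusted p = 0.000606, edgeR). Of the TIM22 translocase, the metazoan subunit TIMM29 was at 7.32, 6.78 and 7.14 RPKM in FBL knockdown libraries, against 9.33, 9.71 and 8.32 RPKM in control libraries (-0.36 ± 0.09, adjusted p = 0.0129, edgeR). That call was lost in 3 of 21 alternative settings, among them without FBL knockdown replicate 2 or FBL knockdown replicate 3 (-0.34 to -0.33, adjusted p = 0.0602 to 0.0645, edgeR). The pore subunit TIMM22 lay between 7.60 and 8.84 RPKM in FBL knockdown and between 8.13 and 8.70 RPKM in control libraries and did not pass (-0.03 ± 0.09, interval -0.22 to 0.16, adjusted p = 0.802, edgeR).

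Among the 5 proteases of the inner membrane and the intermembrane space, SPG7 and HTRA2 were lower. SPG7 and AFG3L2 are the subunits of the m-AAA protease, which faces the matrix. SPG7 (paraplegin) was at 4.99, 4.09 and 4.65 RPKM in FBL knockdown libraries, against 6.73, 7.31 and 6.66 RPKM in control libraries, groups well apart (-0.59 ± 0.09, adjusted p = 0.000722, edgeR). AFG3L2 was at 6.45, 6.13 and 5.83 RPKM in FBL knockdown and 7.08, 6.45 and 6.84 RPKM in control libraries, with the highest knockdown value just above the lowest control value (-0.14 ± 0.08, interval -0.32 to 0.04, adjusted p = 0.215, edgeR). TUBB6 on the opposite strand overlaps 12.6% of the exon bases of AFG3L2 and was lower (-0.36 ± 0.09, adjusted p = 0.00889, edgeR), so the AFG3L2 value is uncertain. AFG3L2 stood at 1.29, 1.5 and 1.25 times the SPG7 level in FBL knockdown, against 1.05, 0.882 and 1.03 times in control libraries, higher in every knockdown library. HTRA2, a serine protease of the intermembrane space, was at 42.9, 38.0 and 39.0 RPKM in FBL knockdown libraries, against 44.9, 55.4 and 48.7 RPKM in control libraries (-0.31 ± 0.09, adjusted p = 0.0263, edgeR). The call of HTRA2 was lost in 6 of 21 alternative settings, among them without any 1 of FBL knockdown replicates 2 and 3 and control replicates 2 and 3 (-0.32 to -0.23, adjusted p = 0.0627 to 0.151, edgeR). On the opposite strand AUP1 overlaps 16.1% of the exon bases of HTRA2 and was lower (-0.75 ± 0.10, adjusted p = 0.000284, edgeR), LOXL3 overlaps 20.8% and did not pass (-0.17 ± 0.09, adjusted p = 0.177, edgeR), and the part of such reads in the HTRA2 value was not tested. The i-AAA protease YME1L1 had 1.39, 1.74 and 1.63 RPKM in FBL knockdown and 1.81, 1.47 and 1.58 RPKM in control libraries (-0.02 ± 0.12, interval -0.29 to 0.24, adjusted p = 0.914, edgeR). OMA1, which cleaves OPA1 and DELE1 under stress, was the scarcest member, with 0.328, 0.282 and 0.310 RPKM in FBL knockdown and 0.351, 0.255 and 0.400 RPKM in control libraries (-0.12 ± 0.19, interval -0.54 to 0.29, adjusted p = 0.646, edgeR). The groups of both overlapped, and the interval of OMA1 is wide at this depth.

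The prohibitins had the highest levels per length of the 40 members. PHB2 led with 295, 275 and 284 RPKM in FBL knockdown and 307, 353 and 326 RPKM in control libraries, and PHB followed with 144, 124 and 129 RPKM in FBL knockdown libraries, against 185, 180.4 and 181 RPKM in control libraries. Neither gene had overlapping groups. PHB was called lower (-0.46 ± 0.08, adjusted p = 0.00165, edgeR) and PHB2 was not (-0.20 ± 0.08, interval -0.38 to -0.02, adjusted p = 0.0842, edgeR). PHB2 passed in 1 of 21 alternative settings, the GC correction that raised calls over all genes, with no larger change (-0.19, adjusted p = 0.0178, edgeR). PHB stood at 0.486, 0.452 and 0.453 of the PHB2 level in FBL knockdown, against 0.601, 0.511 and 0.555 in control libraries. An antisense row (ENSG00000250186) overlaps 25.1% of the exon bases of PHB and was lower in parallel (-0.57 ± 0.10, adjusted p = 0.00129, edgeR), and with the strand setting of the counting unknown its reads and those of PHB cannot be told apart. TIMMDC1, an assembly factor of respiratory complex I that is related in sequence to the TIMM17 family, was at 5.33, 4.76 and 5.24 RPKM in FBL knockdown libraries, against 6.70, 5.73 and 6.22 RPKM in control libraries. Its groups lay apart (-0.28 ± 0.10, adjusted p = 0.0464, edgeR), but the call was lost in 14 of 21 alternative settings, among them without any 1 of FBL knockdown replicates 1, 2 and 3 and control replicates 1 and 3 (-0.30 to -0.22, adjusted p = 0.0694 to 0.166, edgeR).

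The ratios between partners were compared over 13 pairs. In 8 of them the FBL knockdown and control libraries did not overlap. Among all tested genes taken singly, the knockdown lay below for 23.3% and above for 21.9%. The share for ratios of other gene pairs was not computed, and the pairs were chosen with earlier results of these data known. Each of the 8 pairs had a 2-sided exact permutation p of 0.1, the smallest that 3 against 3 can give. It was 0.162 after Benjamini-Hochberg adjustment over the 13 pairs, so none passed. The difference of the mean log2 ratio, FBL knockdown minus control, was -1.44 for LONP1/CLPP, -0.81 for PMPCA/PMPCB, -0.69 for TIMM17A/TIMM17B, -0.43 for TIMM10/TIMM10B and -0.26 for PHB/PHB2. It was 0.62 for TIMM9/TIMM10, 0.45 for AFG3L2/SPG7 and 0.44 for TOMM20/TOMM70. In the other 5 pairs (TIMM23/TIMM23B, TIMM8A/TIMM8B, TOMM40/TOMM40L, CLPX/CLPP and YME1L1/OMA1) the libraries overlapped, with exact permutation p from 0.2 to 0.8.

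**Figure D3:**
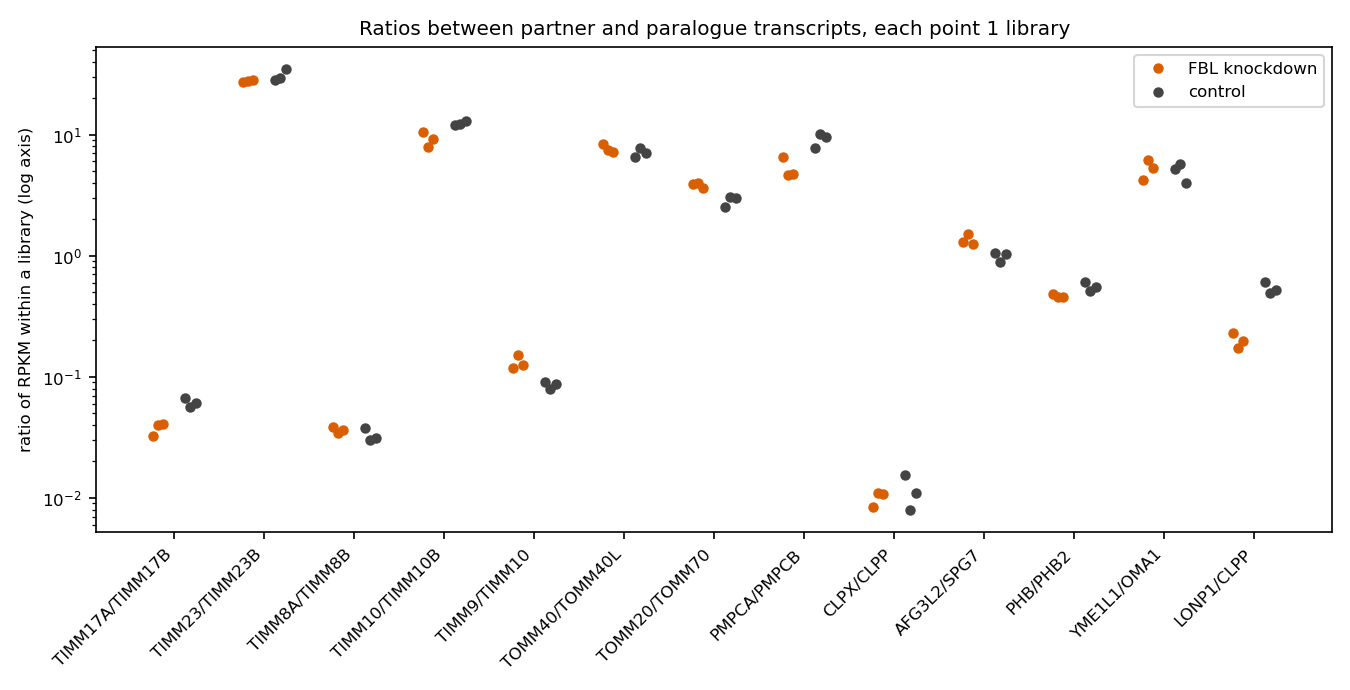
Ratio of RPKM between the members of 13 pairs in each library on a log axis, FBL knockdown left of control. The groups lie apart in 8 pairs, most widely for LONP1/CLPP, where the knockdown libraries are at 0.174 to 0.228 and the control libraries at 0.491 to 0.608.

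By level per length over all 6 libraries the members ran from 0.321 RPKM for OMA1 to 307 RPKM for PHB2, and 4 averaged over 100 RPKM (PHB2, PHB, TIMM10 and TOMM22) while 4 averaged under 1 RPKM (OMA1, PAM16, TIMM21 and CLPX). The 19 lower members had a median of 15.8 RPKM and the 20 that did not pass a median of 8.30 RPKM. Lower calls were made in 8 of 13 members at 100 CPM or more, beside 27.8% of all genes at that level, in 10 of 20 from 10 to 100 CPM, beside 27.7%, and in 1 of 7 from 1 to 10 CPM, beside 14.3%. The median GC content of transcripts was 52.3% in the lower members, 43.2% in those that did not pass and 49.6% over all tested genes. After the correction for GC content per library, 21 members were lower and 2 higher, the added calls being TIMM13 and PHB2 lower and TIMM9 higher (0.19, adjusted p = 0.0344, edgeR). Over all genes the correction raised the calls as well, to 4300 lower (23.3%) and 4170 higher (22.6%), against 3141 and 2920 without it. Chromosome 19 carries 7 of the members, more than any other.

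**Figure D4:**
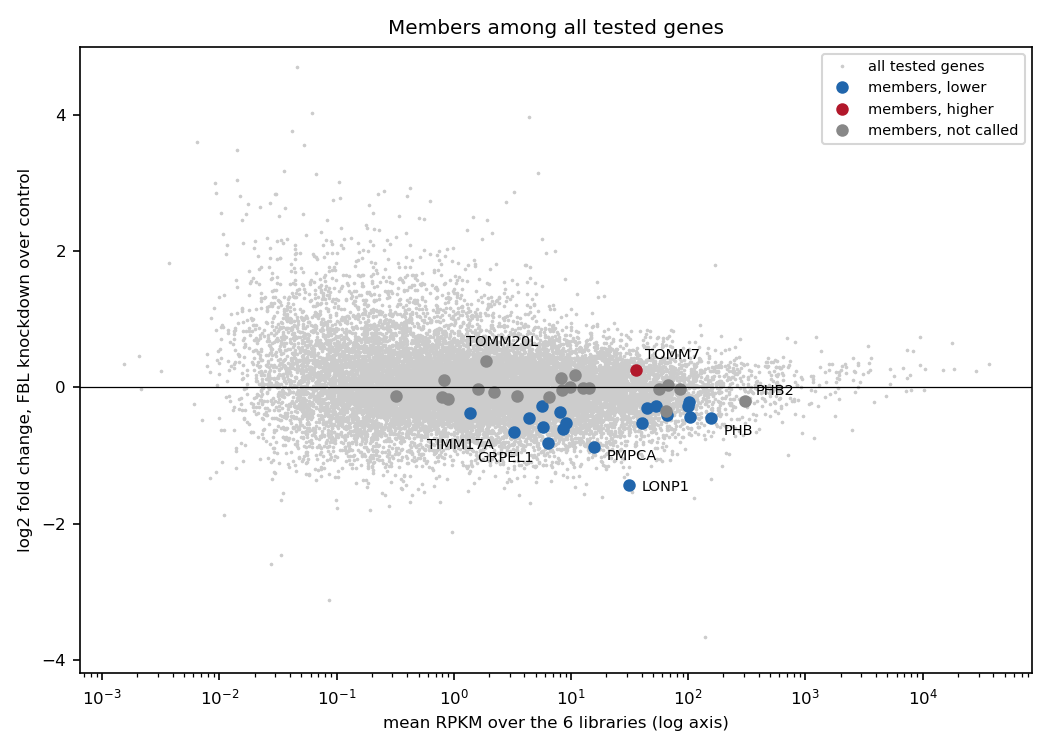
Log2 fold change of FBL knockdown over control against the mean RPKM of the 6 libraries (log axis) for the 40 members (large points) and all tested genes (small grey points). LONP1, PMPCA and GRPEL1 lie lowest among the members, and the members that did not pass run from -0.35 (TIMM13) to 0.39 (TOMM20L).

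Other genes of the same pathway were read from 8 lists with 54 tested genes, of which 18 were lower (33.3%) and 4 higher (7.4%), beside 17.0% and 15.8% of all tested genes. At 10 CPM or more 14 of 37 list genes were lower (37.8%) and 3 higher (8.1%), beside 27.7% and 16.2% of all genes at that level. The counts of single lists below rest on few genes and are descriptions only. The number called in all was 12 without FBL knockdown replicate 2, 13 without FBL knockdown replicate 3 and 14 without control replicate 3. Among mitochondrial chaperones 5 of 8 were lower. HSPA9, the motor chaperone that GRPEL1 recharges, averaged 4.74 ± 0.0876 RPKM in FBL knockdown and 10.1 ± 2.65 RPKM in control libraries (SD, n = 3 each), at -1.09 ± 0.16 (adjusted p = 0.000524, edgeR). The folding chaperonin HSPD1 (-0.88 ± 0.14), the chaperone TRAP1 (-0.60 ± 0.09) and the GRPEL1 paralogue GRPEL2 (-0.60 ± 0.13) were lower too, as was DNAJA3 (-0.28 ± 0.09), a call that was lost without any 1 of FBL knockdown replicates 2 and 3 and control replicates 2 and 3 (-0.31 to -0.21, adjusted p = 0.0536 to 0.192, edgeR) and in 6 of 21 alternative settings in all. Of the genes for outer-membrane assembly and insertion 2 of 5 were lower, the insertase MTCH2 (-0.59 ± 0.08) and the sorting pore SAMM50 (-0.41 ± 0.10). In the disulfide relay AIFM1, which anchors the import oxidoreductase CHCHD4, was lower at -0.99 ± 0.11 (adjusted p = 0.000118, edgeR), and CHCHD4 (-0.14 ± 0.09) and GFER (-0.02 ± 0.12) did not pass. Of 4 channel partners and insertases, BCS1L was lower (-0.35 ± 0.09). Among 11 other peptidases and scaffolds XPNPEP3 was lower (-0.46 ± 0.12), while the intermediate peptidase MIPEP (0.46 ± 0.13) and ATP23 (0.35 ± 0.11) were higher. Calls were lost without 1 library for SAMM50 (FBL knockdown replicates 2 and 3), BCS1L (those and control replicate 3), XPNPEP3 (FBL knockdown replicate 2), MIPEP (each FBL knockdown replicate and control replicate 3) and ATP23 (FBL knockdown replicate 2 and control replicate 3), with an adjusted p between 0.0502 and 0.144 (edgeR) and values of -0.39 to -0.38, -0.33 to -0.30, -0.41, 0.40 to 0.51 and 0.24 to 0.34 in that order of genes. Over all alternative settings the call was lost in 2 of 21 for SAMM50, 3 of 21 for BCS1L, 1 of 21 for XPNPEP3, 5 of 20 for MIPEP and 4 of 21 for ATP23.

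Of 6 genes that relay mitochondrial stress 1 was called. ATF5, a transcription factor of the mitochondrial unfolded protein response, was lower (-0.26 ± 0.09, adjusted p = 0.0415, edgeR), and it lost the call in 11 of 21 alternative settings, 7 of them with all libraries kept, RLE scaling and DESeq2 included (adjusted p = 0.0637 and 0.0647), and 4 without any 1 of FBL knockdown replicates 2 and 3 and control replicates 2 and 3 (-0.28 to -0.20, adjusted p = 0.0941 to 0.216, edgeR). ATF4 (-0.13 ± 0.08, interval -0.31 to 0.05), DDIT3 (-0.17 ± 0.14, interval -0.48 to 0.15) and DELE1 (0.13 ± 0.08, interval -0.05 to 0.30) did not pass. Among genes of fusion, fission and mitophagy the kinase PINK1 was higher at 0.43 ± 0.08 (adjusted p = 0.00216, edgeR), averaging 8.67 ± 0.520 RPKM in FBL knockdown and 6.44 ± 0.152 RPKM in control libraries (SD, n = 3 each). The fusion factor MFN2 (-0.37 ± 0.09) and the phosphatase PGAM5 (-0.24 ± 0.08) were lower. MFN2 lost its call without FBL knockdown replicate 3 (-0.29, adjusted p = 0.0857, edgeR), and PGAM5 lost its call in 13 of 21 alternative settings, 8 of them with all libraries kept, RLE scaling and DESeq2 included (adjusted p = 0.0831 and 0.0769), and 5 without any 1 of the libraries other than FBL knockdown replicate 1 (-0.25 to -0.19, adjusted p = 0.0762 to 0.229, edgeR). Of 10 regulators of mitochondrial biogenesis 5 were lower and 1 higher, with the largest falls in the ribosomal RNA dimethylase TFB1M (-0.77 ± 0.13), the coactivator PPRC1 (-0.66 ± 0.08) and the nuclear receptor ESRRA (-0.46 ± 0.09). The transcription factor NRF1 was lower as well (-0.40 ± 0.08), and TFAM, which packs mitochondrial DNA, did not pass (-0.11 ± 0.12, interval -0.37 to 0.15). GABPA (-0.08 ± 0.12, interval -0.36 to 0.19) and GABPB1 (-0.07 ± 0.105, interval -0.30 to 0.16) did not pass either. TFB2M was lower (-0.38 ± 0.12) and YY1 higher (0.24 ± 0.08), but without 1 library TFB2M lost its call in 4 cases (each FBL knockdown replicate and control replicate 3, -0.44 to -0.31, adjusted p = 0.052 to 0.154, edgeR) and YY1 in 5 (each FBL knockdown replicate and control replicates 2 and 3, 0.19 to 0.30, adjusted p = 0.0564 to 0.18, edgeR), and over all alternatives in 7 of 20 and 10 of 21. Across these lists the adjusted p of the named genes that kept their call in every alternative setting was between 0.000118 for AIFM1 and 0.0061 for GRPEL2 (edgeR).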

How the data were processed

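The labels' protocols name the NEBNext Ultra kit for library preparation. How RNA was selected and whether counting used strand is not given in the sources used here. The deposited counts are whole reads per gene, which the authors made from reads trimmed with cutadapt 1.18, aligned with HISAT2 to GRCh38 and assigned with featureCounts, per the submitters' processing notes, with versions other than that of cutadapt not given there. The deposited RPKM values were made by the authors from those counts: 191796 of 191796 values were recovered from the counts, the gene length and TMM-scaled library totals within a relative tolerance of 1e-06. No row lacked a gene identifier and all 6 columns were used. Intervals are approximate 95% confidence intervals of the log2 fold change, derived with the SE from the output of the edgeR test. The SE is the absolute log2 fold change divided by the square root of the test's F statistic. The interval spans that SE times the t quantile for the fit's degrees of freedom on either side. Both rest on the variation between these 6 libraries, and the interval is not the range of the libraries.

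Counts were tested with edgeR 4.0.16 in R 4.3.3 (estimateDisp and glmQLFit, group as the only term, TMM, filterByExpr with its minimum set at 10 counts per library and 15 in total), over 18486 genes. The edgeR test was also run on counts simulated from the fitted dispersions, with fewer changed genes than were called here. That run checks the code and not the results reported. Alternatives were other scalings and filters, DESeq2 1.42.0, limma 3.58.1 (voom, and log2 of RPKM with 1 or 0.1 added), a replicate block, a GC correction and leaving out each library. Adding pseudogene reads to their parent gene was chosen after the data had been seen. Gene positions and exon overlaps came from GENCODE v29 (31848 of 31966 genes matched by identifier), which may not be the authors' annotation, and promoters from RefSeq on GRCh38.p14. All members were placed by role, and each member past the threshold or in a compared pair was named with its 6 values. The members, the pairs and the lists were chosen with earlier results of these data known. TOMM6 was not analysed here, nor were protein measurements.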

Additional observations from a re-analysis of the deposited data

How the results depend on the processing

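Of the 19 lower members, 11 kept their call in each of the 21 settings tried (GRPEL1, LONP1, PHB, PMPCA, SPG7, TIMM10, TIMM17A, TIMM23, TIMM44, TOMM40L and TOMM70), 8 lost it in at least 1, and none of the 20 called members changed sign in any setting. The count of higher members was 0 with library size only and 0 without a filter, and 2 after the GC correction. The median log2 fold change of the members was -0.15 under upper-quartile scaling, which moved the median of all genes to 0.06 and their calls to 2528 lower and 3597 higher, and -0.19 after the GC correction. The stricter filter, which tests fewer genes, left 1926 genes higher. Leaving out 1 library gave 11 to 18 lower members, 0 to 2 higher members, a members' median of -0.24 to -0.19, 12 to 22 list genes called, 11 to 17 list genes lower, 1835 to 3645 of all genes lower and 1861 to 3298 of all genes higher. Over all genes, 2064 were lower without FBL knockdown replicate 2, 1835 without FBL knockdown replicate 3, and 1861 and 1909 were higher without FBL knockdown replicate 2 and control replicate 3. The cause of these shifts beyond the smaller number of libraries was not tested. The same-numbered libraries deviated with correlations of -0.28, -0.20 and 0.05. With 3 libraries per group these values cannot show whether the replicate numbers mark a shared batch. A fit with the replicate number as a block called 12 members lower and 0 higher, 1987 of all genes lower and 1846 higher. Adding pseudogene reads, an alternative chosen after the data had been seen, changed no member's call. The 3 libraries per group and the low counts of OMA1, PAM16 and TOMM20L limit the precision.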
